A study of Mus musculus with 6 samples.

Results

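The sodium pump genes Atp1b1, Atp1b2 and Atp1b3 and the FXYD genes Fxyd1, Fxyd5 and Fxyd6 were described in 3 mouse osteosarcoma lines and 3 cultures of mouse osteoblasts. These 6 genes, of 19938 measured, were picked by gene family and selected on the measured difference between lines and cultures. That difference is therefore given as a description, without a test. Where a gene had several probe sets, the brightest on average was taken, and among the members only Atp1b3 had more than 1.

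The lines OS_493H, OS_494H and OS_716H were grown from primary tumours of C57Bl6 mice that carried Osx-Cre (Cre under the Osterix promoter, which is active in the osteoblast lineage) and fl/fl alleles of both p53 and Rb. The tumours arose in the hip of a female (OS_493H), the hip of a male (OS_494H) and the tibia of a female (OS_716H), at ages listed as 188, 190 and 226 without a unit. The osteoblasts were KUSA4b10, 1 bone marrow stromal cell line, kept in 50 ug/ml ascorbate for 21 days from confluence. All cells were grown in RPMI medium with serum, and no such differentiation step is recorded for the lines. Tumour origin, growth state and differentiation state cannot be told apart in this comparison. The titles give each culture its own replicate number and its own Ex number, but no label says what Ex stands for or whether the cultures were started separately, so the spread among them may be partly technical. With 3 arrays a group, the number of arrays limits every value.

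The sodium pump (Na,K-ATPase) uses ATP to move sodium out of the cell and potassium in, and the gradients it makes drive exchangers, cotransporters and the membrane potential. Its alpha subunit carries the ATPase and ion-binding sites. The beta subunit is a glycoprotein that the alpha subunit needs for folding and for delivery to the cell surface, and it can also act in cell adhesion. FXYD proteins are small single-span membrane proteins that associate with the pump and adjust its affinity for ions or its turnover. In osteoblasts the sodium gradient also drives phosphate uptake for mineral formation.

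Some features of the arrays touch what follows. Rb1, a targeted gene, was lower in every line (9.26, 9.70 and 9.87) than in every culture (10.66 to 10.68). OS_716H is labelled female, but its array had Xist at 5.50 and Eif2s3y at 10.11, against 12.62 and 4.08 in the female line OS_493H and 5.31 and 9.96 in the male line OS_494H. Cultures 1 and 3 resembled each other most, with 3 genes more than 1 log2 unit apart, against 150 and 186 genes for culture 2. Of 6 measured markers of mature osteoblasts, 3 were lower in the lines (Ibsp, Phex and Dmp1; limma adjusted p = 7.14e-04, 9.46e-04 and 2.55e-04). Among markers of other cells, none of 10 endothelial markers passed (0 at an unadjusted p under 0.05), and 1 of 10 macrophage markers was higher and 1 lower. Over all genes, 13.2% were higher and 11.4% lower at the same threshold. Mki67, a gene of dividing cells, was 11.46 to 12.01 in the lines and 8.99 to 10.34 in the cultures.

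The 250 bases before the annotated start of 3 members are shown because these members carried the largest rise (Atp1b1), the largest fall (Fxyd1) and the opposite direction at a close neighbour of the latter (Fxyd5). They come from RefSeq on GRCm38.p6, all on the minus strand and written 5′ to 3′, at chr1:164458356-164458605, chr7:31054854-31055103 and chr7:31042332-31042581. Capitals mark a GC box (GGGCGG) or a CCAAT box (CCAAT), each searched on both strands. The arrays do not show which start a cell used.
Atp1b1: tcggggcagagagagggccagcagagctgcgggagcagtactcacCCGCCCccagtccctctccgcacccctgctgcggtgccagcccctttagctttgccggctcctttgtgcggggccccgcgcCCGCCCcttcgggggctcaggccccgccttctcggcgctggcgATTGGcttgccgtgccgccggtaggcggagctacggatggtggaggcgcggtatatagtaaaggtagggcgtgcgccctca
Fxyd1: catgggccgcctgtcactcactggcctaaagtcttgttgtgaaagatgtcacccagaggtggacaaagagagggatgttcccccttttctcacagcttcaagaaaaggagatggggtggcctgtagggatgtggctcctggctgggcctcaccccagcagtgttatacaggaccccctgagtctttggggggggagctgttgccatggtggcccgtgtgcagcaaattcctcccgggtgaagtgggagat
Fxyd5: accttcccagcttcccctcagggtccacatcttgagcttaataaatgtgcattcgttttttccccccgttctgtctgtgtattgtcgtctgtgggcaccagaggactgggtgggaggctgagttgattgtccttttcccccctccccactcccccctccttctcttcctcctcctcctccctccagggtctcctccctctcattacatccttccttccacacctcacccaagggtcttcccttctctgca

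The Atp1b1 window held 2 GC boxes, beginning 205 and 124 bases before the start, and 1 CCAAT box at 81 bases. GC boxes occurred in 32.7% and CCAAT boxes in 33.8% of the 32851 windows of this length. The Fxyd1 and Fxyd5 windows held neither. The windows also differed in CpG dinucleotides, the sites of DNA methylation in mammals. Atp1b1 had 24 CpG and 70.4% GC, and 88.0% of all windows had fewer CpG. Fxyd1 and Fxyd5 had 3 CpG each, at 57.2% and 55.6% GC, where the median window had 6. Of the other members, Atp1b3 (2 windows) had 24 and 35 CpG, with 5 GC boxes in the former and none in the latter. Fxyd6 had 5 CpG and 1 CCAAT box. A TATA box, searched only as the exact letters TATAAA on both strands and found in 12.4% of all windows, was in none of these windows. Other spellings were not searched, and the Atp1b1 window holds the letters tatata near its end. No window was found for Atp1b2, so its promoter was not examined. Methylation was not analysed here, and a match of letters is not evidence of binding.

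The 6 genes did not move as a unit. The lines had much more Atp1b1 and much less Fxyd1 than the cultures, a little more Fxyd5, slightly less Atp1b3 and Fxyd6, and overlapping levels of Atp1b2. Lines and cultures did not overlap for 5 of the 6 genes, 2 of them higher and 3 lower in the lines. Among all genes the groups did not overlap for 41.5%, and since the genes were selected on this contrast nothing is read from the count. Probe sets respond differently, so levels are compared between arrays and never between genes. These are values of whole cultures, in which fewer cells of a type and less RNA per cell cannot be told apart.

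**Figure D1:**
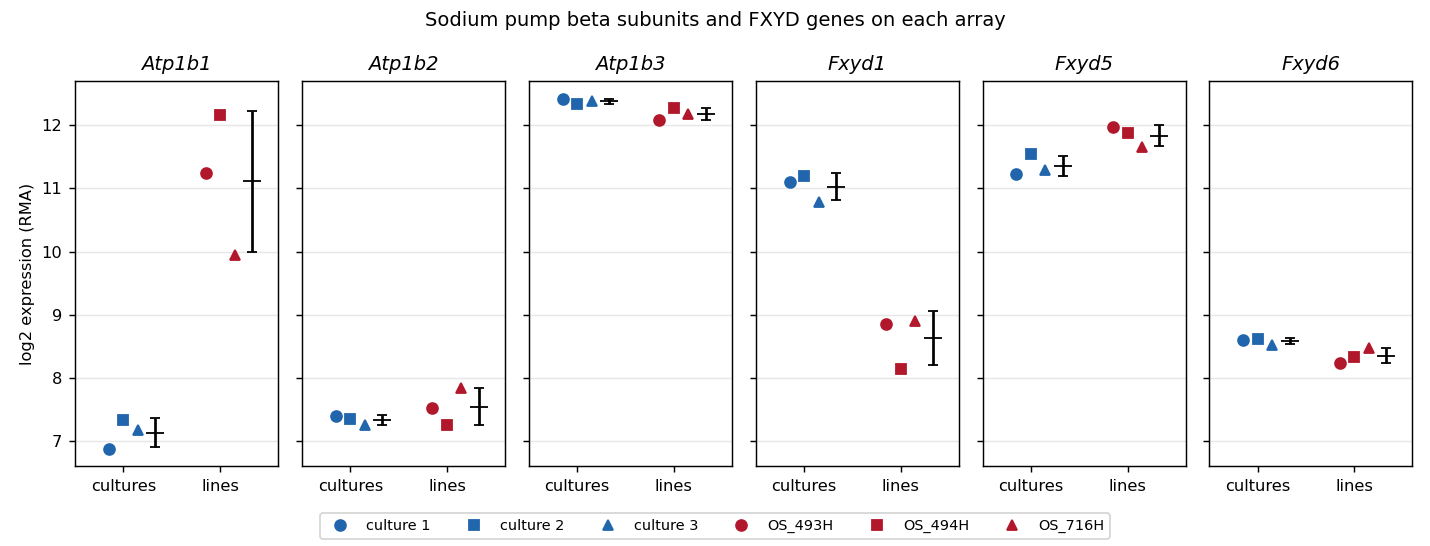
Log2 expression of the 6 genes on each array (y axis, RMA values), with the 3 osteoblast cultures in blue, the 3 osteosarcoma lines in red, and the mean and SD of each group in black. The lines lie from 9.94 to 12.17 for Atp1b1, all above the cultures, and from 8.14 to 8.90 for Fxyd1, all below them, while the groups overlap for Atp1b2.

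Among the beta subunits, Atp1b1 had by far the largest difference. This gene encodes the beta subunit of most tissues, which takes part in adhesion between epithelial cells. Among the lines its log2 expression was highest in OS_494H (12.17), then OS_493H (11.24) and OS_716H (9.94), against 6.88, 7.33 and 7.17 in cultures 1, 2 and 3. Each line stood well above each culture, and even the lowest line exceeded the highest culture by 2.61 log2 units. The group means were 11.12 ± 1.12 and 7.13 ± 0.23 (SD, n = 3 each). The difference was 3.99 ± 0.52 log2 units (SE), the 7th largest measured rise of all genes and 15.9-fold in signal. The culture mean lay below 7.94, the median of all values, and RMA makes no detection call, so it is not known whether the cultures had signal above background, and the fold in transcript may be larger.

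The size of the Atp1b1 difference depended on the line. Against the culture mean, the Atp1b1 signal was higher by 5.04 log2 units in OS_494H, 4.11 in OS_493H and 2.81 in OS_716H. The lines ranged over 2.22 log2 units, and their SD exceeded that of 99.0% of genes, whereas the median gene had an SD of 0.13 over the lines. The 3 lines were further apart from one another than the cultures were. Without OS_716H the difference was 4.58, and without OS_494H it was 3.46. The cultures were also less uniform than usual for this gene, with an SD above that of 90.9% of genes.

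Epithelial cells are rich in this subunit, so their markers were examined beside it. None of 10 epithelial markers passed the test (limma over all genes), with 1 at an unadjusted p under 0.05. Their mean log2 level was 6.87 to 6.99 in the lines and 6.77 to 6.82 in the cultures. The groups did not overlap in this mean level, but they lay close together. The largest difference was that of Krt19 (0.97, limma adjusted p = 0.0736). Krt19 was 7.89, 8.20 and 6.87 in OS_493H, OS_494H and OS_716H, against 6.59 to 6.75 in the cultures. Its order among the lines was that of Atp1b1, which was not tested, and both of its group means lay below 7.94.

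Atp1b2 encodes a beta subunit of brain glia, also known as adhesion molecule on glia (AMOG). Lines OS_493H, OS_494H and OS_716H had log2 values of 7.52, 7.25 and 7.84, and cultures 1, 2 and 3 had 7.40, 7.34 and 7.24. OS_716H was highest and OS_494H lay within the range of the cultures, so the groups overlapped. The means were 7.54 ± 0.29 and 7.33 ± 0.08 (SD, n = 3 each), a difference of 0.21 ± 0.15 (SE). Without OS_716H it was 0.06. Both means also lay below 7.94, so it is not known whether this probe set measured a transcript. Of 8 measured markers of glia and Schwann cells none passed the test (limma), with 1 at an unadjusted p under 0.05.

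Atp1b3 encodes a widely expressed beta subunit. The log2 values of OS_493H, OS_494H and OS_716H were 12.09, 12.28 and 12.18, and those of cultures 1, 2 and 3 were 12.42, 12.34 and 12.39. Every line lay below every culture, but the gap between the nearest arrays was only 0.06. The means were 12.18 ± 0.09 and 12.38 ± 0.04 (SD, n = 3 each), a difference of -0.20 ± 0.08 (SE), or 1.15-fold. The further probe set gave -0.23, with lines at 11.49 to 11.73 and cultures at 11.78 to 11.93. Both probe sets therefore ran lower in the lines by a small amount.

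The lines thus ranked differently for each beta subunit. OS_494H had the highest Atp1b1 and the lowest Atp1b2, and OS_716H had the lowest Atp1b1 and the highest Atp1b2. For Atp1b3 the highest line depended on the probe set. It was OS_494H on the brighter one, but OS_716H on the further one (11.735, against 11.698 in OS_494H). With 3 lines these orders were not tested.

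Among the FXYD genes, Fxyd1 changed most. It encodes phospholemman, a pump regulator abundant in heart and skeletal muscle that is phosphorylated by protein kinases. Log2 expression reached 8.86 for OS_493H, 8.14 for OS_494H and 8.90 for OS_716H, against 11.10, 11.19 and 10.79 in the cultures. All lines were far below all cultures, and the highest line was 1.89 log2 units below the lowest culture. The means were 8.63 ± 0.42 and 11.03 ± 0.21 (SD, n = 3 each). The difference was -2.40 ± 0.22 (SE), which is 5.26-fold lower and the 86th largest fall of all genes.

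OS_494H, the line with the most Atp1b1, had the least Fxyd1. It was 7.39-fold below the culture mean, while OS_493H and OS_716H were 4.50- and 4.38-fold below it and lay closer together than the SD of the cultures. The SD over lines was above that of 92.4% of genes. Leaving out any 1 array gave differences from -2.53 to -2.15.

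Markers of fat cells were examined beside Fxyd1. Of 9 measured adipocyte markers, 8 were lower in the lines and none higher (limma adjusted p under 0.05), where 11.4% of all genes were lower. Their mean log2 level was 7.77 to 8.26 in the lines and 10.48 to 11.06 in the cultures. Within the cultures the order differed. Fxyd1 was highest in culture 2, where Adipoq, Plin1, Cidec, Fabp4, Pparg, Lpl and Slc2a4 were lowest. Lep was highest there too, and Retn was lowest in culture 3. Markers of mature osteoblasts were also lower in the lines for 3 of 6 measured. Within the cultures Sp7, Alpl, Ibsp, Phex and Col1a1 were highest in culture 2, as Fxyd1 was, while Dmp1 was lowest there. With 3 cultures these orders were not tested. Nor was the part of fat-like cells or mature osteoblasts in the Fxyd1 difference. Of 10 measured muscle markers, Acta1 alone passed, and it was higher in the lines (0.34, limma adjusted p = 0.0146). Their mean level was 7.02 to 7.08 in the lines and 6.99 to 7.09 in the cultures.

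Fxyd5 encodes dysadherin, an FXYD protein with a long extracellular part that is linked to weaker E-cadherin adhesion in carcinoma cells. OS_493H had a log2 value of 11.97, OS_494H of 11.88 and OS_716H of 11.65, against 11.23, 11.54 and 11.30 in the cultures. Every line was above every culture, although OS_716H exceeded culture 2 by only 0.11. The means were 11.83 ± 0.17 and 11.36 ± 0.17 (SD, n = 3 each), a difference of 0.48 ± 0.12 (SE), or 1.39-fold. OS_716H had the lowest level of the lines, as it had for Atp1b1. Cdh1, the E-cadherin gene, was 6.96 ± 0.09 in the lines and 7.04 ± 0.04 in the cultures (SD, n = 3 each), a difference of -0.08 that missed the threshold (limma adjusted p = 0.512).

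Fxyd6 encodes phosphohippolin, an FXYD protein best known from brain. OS_493H had a log2 value of 8.24, OS_494H of 8.32 and OS_716H of 8.48, against 8.60, 8.61 and 8.52 in the cultures. The lines were all lower, but OS_716H lay only 0.05 below culture 3. The means were 8.35 ± 0.12 and 8.58 ± 0.05 (SD, n = 3 each), a difference of -0.23 ± 0.09 (SE), or 1.17-fold. Of 10 neuronal markers, Map2 and Gap43 passed and were higher in the lines (1.48 and 0.38, limma adjusted p = 0.00336 and 0.0282). Both group means of Gap43 and the culture mean of Map2 lay below 7.94. The other 8 markers did not pass, and the list median was 0.02. Called markers made up 20% of this list, where 24.6% of all genes were called.

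The lines ranked in opposite orders for Fxyd5 and Fxyd6. OS_493H had the most Fxyd5 and the least Fxyd6, and OS_716H the least Fxyd5 and the most Fxyd6. With 3 lines these orders were not tested either.

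Fxyd5 and Fxyd1 share a stretch of chromosome 7. In RefSeq order the coding genes there run Fxyd5, Fxyd7, Fxyd1, Lgi4 and Fxyd3. Fxyd5 was higher and Fxyd1 lower in the lines, and Fxyd7 between them differed by -0.04 ± 0.08 (SE, limma adjusted p = 0.761), at 7.67 to 7.75 in the lines and 7.68 to 7.89 in the cultures. Lgi4, which encodes a protein secreted by glia, differed by -0.20 (adjusted p = 0.101), and Fxyd3, an FXYD gene of epithelia, by -0.08 (adjusted p = 0.668). Outside the cluster, the flanking genes Fam187b and Hpn differed by 0.01 each (adjusted p = 0.964 and 0.954). Fxyd6 lies on chromosome 9 next to Fxyd2, the kidney gamma subunit of the pump, which differed by 0.08 (adjusted p = 0.653). No measured neighbour of these members passed the test (limma over all genes), and Lgi4 alone had an unadjusted p under 0.05. The neighbours named here that are not members all had both group means below 7.94. It is therefore not known whether their probe sets measured a transcript.

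Smaller differences were seen for the remaining subunits than for Atp1b1 and Fxyd1. There were 6 such subunits measured. None of the 6 passed the test (limma over all genes), where 24.6% of all genes passed, and 2 had an unadjusted p under 0.05. Those were Atp1a4, the alpha subunit of sperm, at -0.26 ± 0.09 (SE, adjusted p = 0.101), and Fxyd4, a regulator of the kidney collecting duct, at -0.17 ± 0.07 (SE, adjusted p = 0.118). Atp1b4, a muscle relative of the beta subunits, differed by -0.05 (adjusted p = 0.733). All 6 had both group means below 7.94, the median of all values, so it is not known whether their probe sets measured a transcript. A missed threshold does not show that these genes were equal in both groups. No value here bears on the amount of assembled pump.

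**Figure D2:**
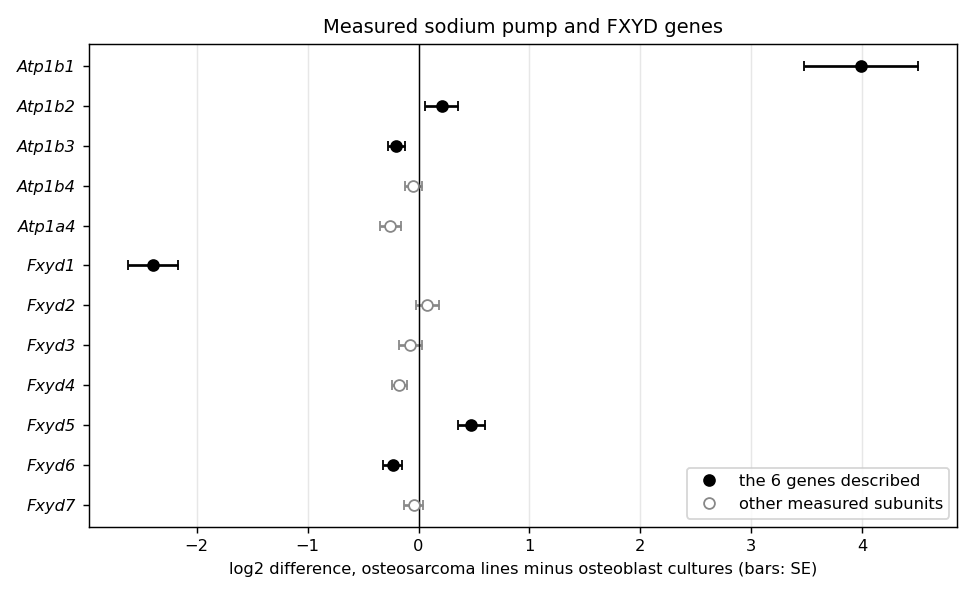
Log2 difference between osteosarcoma lines and osteoblast cultures (x axis, positive when higher in the lines, bars show the SE) for the 6 genes described (filled) and the other measured subunits (open). Atp1b1 at 3.99 and Fxyd1 at -2.40 stand apart, and the others lie between -0.26 and 0.48.

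The genes most like each member over the 6 arrays were found by the root mean square difference of values centred on each gene's own mean. For Atp1b1 they were Fbn2, a fibrillin of microfibrils (0.35 log2 units), Cd34, a sialomucin of stromal and blood progenitor cells (0.37), and Tenm3, a teneurin of the cell surface (0.49). All 3 were highest in OS_494H. Fbn2 and Cd34 were lowest among the lines in OS_716H, at 9.84 and 11.08, as Atp1b1 was, but Tenm3 was lowest in OS_493H, at 9.52. For Fxyd1 they were Hectd2 (0.14), Pltp, the phospholipid transfer protein (0.16), and Hey1, a Notch target (0.22). Each was lowest in OS_494H, but Hey1 only barely, at 6.935 against 6.952 in OS_493H. With 2 groups so far apart, most of this likeness comes from the group difference itself. For the other members the nearest genes lay within 0.06 log2 units. They were Cyria, Ly6g and Mansc1 for Atp1b2, Crk, Ppp1r12c and Atxn7 for Atp1b3, Pcyt1a, S100a10 and Zfp229 for Fxyd5, and Tpsab1, Amz1 and Lrrc24 for Fxyd6.

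**Figure D3:**
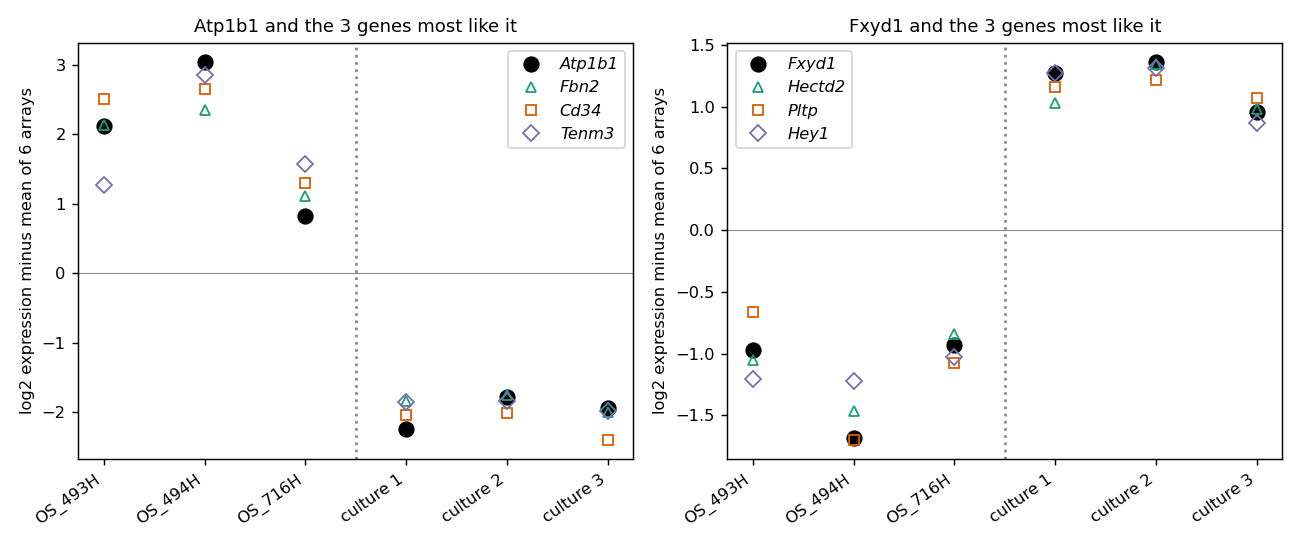
Log2 expression minus the mean of the 6 arrays (y axis) on each array (x axis) for Atp1b1 and Fxyd1 (black) and the 3 genes most like each (open symbols). Fbn2 and Cd34 share the low value of Atp1b1 in OS_716H among the lines, and Hectd2 and Pltp share the low value of Fxyd1 in OS_494H.

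Genes that work with the pump or use its gradients were mixed in direction. Over 7 related lists, which leave out the members, 139 genes were measured. Of these, 18 (12.95%) were higher and 22 (15.83%) lower in the lines (limma adjusted p under 0.05), where 13.2% of all genes were higher and 11.4% lower. The median difference was -0.04, and that of all genes was -0.02. By list, the share called was 53.85% of pump partners and regulators, 36.36% of related ion pumps and 25.81% of transporters. It was 18.75% of channels, 35.29% of junction genes and 46.15% of steroid, thyroid and osmotic regulators. The share over all genes was 24.6%. Where the lower group mean is under 7.94, as for Kcnj2, Kcnk5 and Slc8a1, that group was not shown to be above background. For Scn3a, Atp2a3, Cldn1, Nr3c2 and Thrb both group means were under 7.94, so neither group was shown to be above background. Without culture 1 the counts were 11 and 12, and without culture 3 the lower genes numbered 14.

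**Figure D4:**
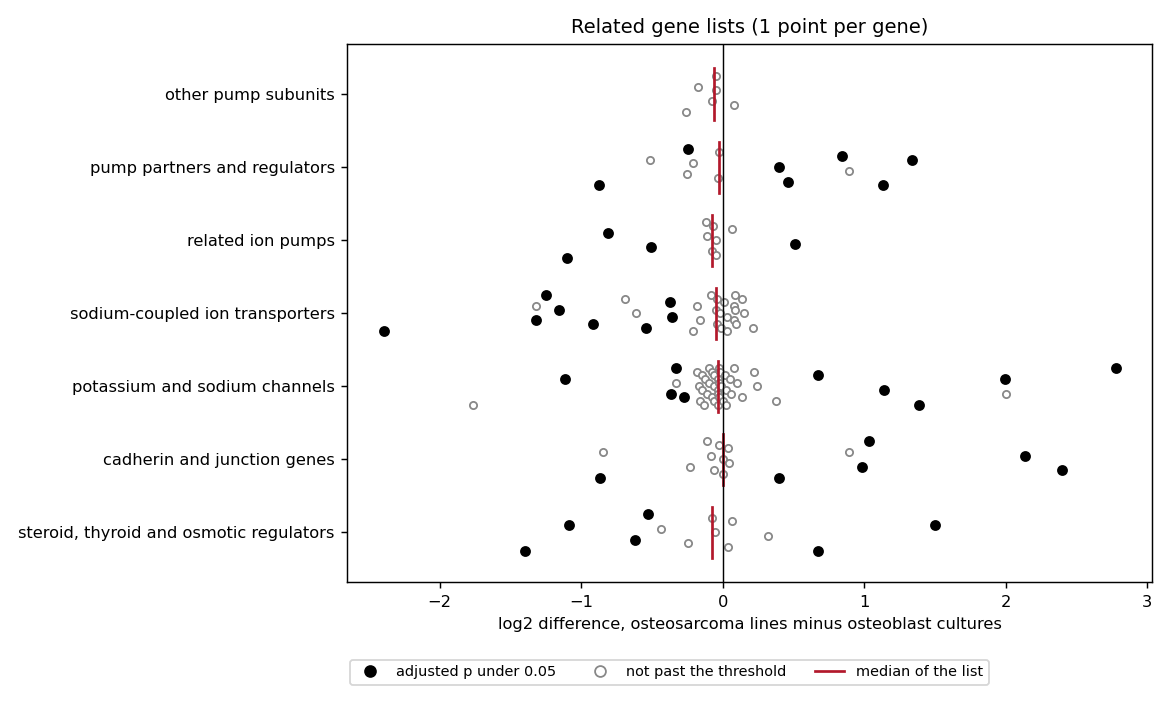
Log2 difference between lines and cultures (x axis) for each measured gene of 7 related lists (rows), filled where the limma adjusted p is under 0.05, with the median of each list in red. Every filled point among the sodium-coupled transporters lies below 0, and the other lists with filled points have them on both sides.

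Of 13 measured pump partners and regulators, 5 rose and 2 fell. Sgk1, a kinase that raises sodium transport, rose 2.53-fold (1.34 ± 0.20 SE, limma adjusted p = 0.00435), at 10.42 to 11.22 in the lines and 9.38 to 9.49 in the cultures. Ank3, an ankyrin that anchors the pump, rose by 1.13 and Cav1, the caveolin that binds it, by 0.84, while Ank1 fell by 0.88 (adjusted p = 0.0135, 0.02 and 0.00113). The call of Ank3 was lost without culture 1 or 3 (adjusted p = 0.0505 and 0.0582). The higher genes of this list numbered 3 without culture 1 or 3, and the lower genes numbered 1 without any 1 culture or without OS_494H. Of 11 related ion pumps, the calcium pumps Atp2a3, Atp2b1 and Atp2a2 fell by 1.10, 0.81 and 0.51, and the Golgi pump Atp2c1 rose by 0.51 (adjusted p = 0.00141 to 0.00823).

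Of 31 sodium-coupled ion transporters and their relatives, 8 fell and none rose, and the list median was -0.05. The sodium-calcium exchanger Slc8a1 fell (-2.39 ± 0.39 SE, limma adjusted p = 0.00615), and Slc12a7, which carries potassium with chloride rather than sodium, fell 2.49-fold. Slc8a3 and the mitochondrial exchanger Slc8b1 fell by 1.25 and 1.16 (adjusted p = 0.0398 and 0.0136). The call of Slc8a3 was lost without any 1 array except cultures 2 and 3 (adjusted p up to 0.115), and that of Slc8b1 without culture 1 or 3 (0.0572 and 0.0584). The lower genes numbered 3 without culture 1 and 5 without culture 3 or OS_493H. Of 48 potassium and sodium channels, 5 rose and 4 fell. Kcnj2, an inward rectifier that sets the resting potential, rose by 2.78 log2 units, the sodium channel Scn3a by 2.00 and Kcnk5 by 1.39 (adjusted p = 0.00528, 0.00166 and 0.00279). Kcnj15 rose by 1.14 (adjusted p = 0.0381), a call lost without any 1 culture (up to 0.117). Channels that fell numbered 1 without any 1 culture or OS_493H, and 2 without OS_494H.

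Of 17 cadherin and junction genes, 5 rose and 1 fell. Cdh3, Cdh11, Cdh2 and Cldn1 rose by 2.40, 2.14, 1.04 and 0.99 (limma adjusted p = 5.81e-04, 9.65e-04, 0.018 and 0.0176). The call of Cdh2 was lost without culture 1 or 3 (adjusted p up to 0.0757) and that of Cldn1 without any 1 culture (up to 0.0613). The genes that rose numbered 2 without culture 1 and 3 without culture 3, and 2 fell without OS_494H. Of 13 steroid, thyroid and osmotic regulators of pump genes, 2 rose and 4 fell. Fkbp5, a glucocorticoid target, rose 2.82-fold and the thyroid hormone receptor Thrb by 0.67 log2 units, while the cortisone reductase Hsd11b1 and the mineralocorticoid receptor Nr3c2 fell by 1.40 and 1.09 (adjusted p = 0.00727, 0.0182, 0.0316 and 5.38e-04). The call of Thrb was lost without culture 1 or 2 (up to 0.0759), where the higher genes numbered 1, and that of Hsd11b1 without culture 1 or 3, OS_493H or OS_494H (up to 0.115). Without OS_493H 2 of these genes were lower.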

How the data were processed

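Total RNA from 6 mouse samples was hybridised to 1-colour Affymetrix arrays, 1 per sample. The authors deposited log2 expression for 35556 probe sets. Per the submitters' processing notes it was made by RMA and refers to mm9, and which software ran it is not given in the sources used here. Such processing equalises the arrays, compresses large differences and keeps no detection call. The values ran from 3.04 to 14.88, with array medians of 7.45 to 7.58. Scan batches were not analysed here.

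Groups came from sample titles. Gene names came from GEO's platform annotation, in which 21789 probe sets had 1 symbol, 1621 several and 12146 none. Only the first kind was used, giving 19938 genes, each by its brightest probe set. Of the 21789 probe sets, 21698 were found in RefSeq (GRCm38.p6) by gene ID.

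Lines and cultures were compared with limma 3.58.1 in R 4.3.3 (lmFit and eBayes, two-sided, no filter or covariate). P-values were adjusted by Benjamini-Hochberg over all genes, and a gene was called under 0.05. The fit was tested on simulated data. Differences are lines minus cultures, and the members received no test. The members and lists were chosen with earlier results of these data known. Some listed genes are not reported here. Named genes are the members, all other measured pump subunits, up to 4 called genes per list with the largest difference and the 3 nearest genes per member (no predicted, olfactory, vomeronasal or small RNA genes), with Rb1 as a check. Cdh1, the FXYD neighbours, single marker genes, Xist, Eif2s3y, Mki67 and the genes of the closing observations were named after values were seen. Alternatives covered scaling, brightness, moderation, array weights, probe sets, averaged cultures, thresholds and each array left out.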

Additional observations from a re-analysis of the deposited data

How the results depend on the processing

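The differences of Atp1b1, Atp1b2, Atp1b3, Fxyd1, Fxyd5 and Fxyd6 kept their direction under every alternative run for them. They also moved by less than the SD between replicates (both groups combined), but most alternatives could not have exceeded this limit. Dropping 1 of 3 arrays, or averaging cultures 1 and 3, always shifts a group mean by less. Averaging over probe sets could change Atp1b3 only. For the other members the limit was therefore informative only for quantile normalisation, median centring and array weights. Leaving out 1 array gave 3.46 to 4.58 for Atp1b1, 0.06 to 0.35 for Atp1b2, -0.25 to -0.15 for Atp1b3, 0.41 to 0.57 for Fxyd5 and -0.30 to -0.18 for Fxyd6. Median centring moved the median of all genes from -0.02 to -0.07. No paired analysis was possible because the lines carry no replicate number in the labels. A signal near background cannot be told from none.

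Called counts moved by over 1.5 times as follows. Stricter thresholds lower a count by construction, and for the other alternatives the cause was not tested. At an adjusted p under 0.01, all lists together had 10 higher and 11 lower genes, pump partners 2 and 1, transporters 3 lower, channels 1 lower, junction genes 2 higher, and regulators 1 and 2. With at least a 2-fold change, the totals were 10 and 8, pump partners 2 and 0, ion pumps 0 and 1, transporters 4 lower, channels 1 lower, junction genes 3 and 0, and regulators 1 and 2. With cultures 1 and 3 averaged, 13 genes were lower in all, with 3 and 1 pump partners, 4 lower transporters, 1 lower channel and 3 higher junction genes. Lower pump partners numbered 1 with quantile normalisation, brighter genes only or array weights. With brighter genes only, 3 channels and 1 regulator were higher. With array weights 2 junction genes were lower. Leaving out 1 array gave 11 to 21 higher and 12 to 20 lower genes in all, 3 to 6 and 1 to 3 pump partners, 3 to 8 lower transporters, 1 to 4 lower channels, 2 to 6 and 1 to 2 junction genes, and 1 to 2 and 2 to 4 regulators.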

Other observations

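Of the related lists, 6 genes differed between the groups by over 0.8 log2 units and did not pass the test, a rule set after values were seen. This rule picks genes that vary within groups, so their spread is no result. OS_494H was the lowest line for all 6. Scn7a, a sodium channel relative that senses salt, had log2 values of 8.66, 5.99 and 7.63 (OS_493H, OS_494H and OS_716H), against 5.24 to 5.71 in the cultures (limma adjusted p = 0.0597). Slc4a4, a sodium bicarbonate cotransporter, was 10.05, 7.94 and 9.65 in the same lines, against 9.88 to 10.93 (adjusted p = 0.151). Kcnma1, a large-conductance potassium channel, was 8.44, 6.46 and 9.60, against 9.50 to 10.65 (adjusted p = 0.156). Jup, which encodes the junction protein plakoglobin, was 9.96, 8.67 and 9.96, against 10.29 to 10.44 (adjusted p = 0.129). The ankyrin Ank2 was 8.40, 7.22 and 8.06, against 6.94 to 7.08 (adjusted p = 0.063), and the cadherin Cdh13 was 8.26, 7.13 and 7.73, against 6.78 to 6.87 (adjusted p = 0.0508). OS_494H is also the line with the most Atp1b1 and the least Fxyd1.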
